A study of Mus musculus with 18 samples.

Results

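The genes of the mitochondrial ribosomal proteins were followed in mouse liver under 2 diets, calorie restriction and wheel running. Members were the genes whose array probe sets carried exactly 1 symbol made of Mrpl or Mrps and a number. Each gene was represented by its probe set with the highest mean over 18 arrays. This gave 76 genes of the 18193 with a probe set of their own, from 156 probe sets, and 34 of the 76 had a single probe set. The symbols Mrpl30 and Mrpl53 occurred only on probe sets shared with another gene and were left out. All 76 lay above the limit for dim probe sets, so that all 76 were among the 14198 genes tested. By the place of their proteins, 49 belong to the large subunit and 26 to the small subunit. Mrps36 belongs to neither, since its product is now known as a part of the 2-oxoglutarate dehydrogenase complex.

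The livers came from mice of the inbred strain C57BL/6J, all male, with no other allele or agent named in the labels, taken at 62 weeks of age, with 3 mice on 3 Affymetrix Mouse Genome 430 2.0 arrays in each of 6 groups. From 5 weeks of age the LF group ate a diet with 10% fat and the HF group a diet with 60% fat, both without limit. The LF+CR and HF+CR groups got the same diets with 30% calorie restriction, set against the intake of the LF and HF groups, and the LF+Ex and HF+Ex groups ate without limit and had free access to a running wheel. All mice were housed singly and had eaten the low-fat diet before assignment. The 5 comparisons of a pair of groups ask what dietary fat, restriction on each diet and running on each diet change, and 2 interaction tests ask whether restriction or running acts differently on the 2 diets.

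The mitochondrial ribosome translates the messenger RNAs of the mitochondrial genome, which encode core subunits of the respiratory chain and of ATP synthase. All of its proteins are encoded in the nucleus, made on cytosolic ribosomes and imported, and some are related to bacterial ribosomal proteins while others occur only in mitochondria. Liver cells hold many mitochondria, and the promoters of such nuclear genes are known for binding sites of NRF1, of ETS factors such as GABP, and of YY1.

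Promoter windows of RefSeq (build GRCm38.p6, from 250 bases before to 50 bases after a start site) were found for 67 of the 76 genes, in 73 windows. An ETS core, CCGGAAG on either strand, was present in 25 of the 67 genes, or 37.3%, against 15.0% of the 14453 genes on the array with such a window. The YY1 core AAGATGGC, on either strand as for all motifs here, was present in 12 genes, or 17.9%, against 4.07% of all. The NRF1 core, read as GCGCA, any base and GCGC on either strand, was also found in 12 genes, or 17.9%, against 8.61%. At least 1 of these 3 motifs was held by 41 of the 67 genes, or 61.2%, against 24.4% of all, and in no member did an ETS match overlap a YY1 match. The GC box GGGCGG was present in 50.8% of the members and 57.3% of all, and the TATA box TATAAA in 7.46% and 11.5%. The median GC content of the windows was 58.0% for the members and 58.7% for all genes. A start site of another gene on the opposite strand, pointing away within 500 bases, was found for 22 of the 67 genes, or 32.8%, against 14.6% of all. Mrpl46 and Mrps11 form such a pair with each other, 42 bases apart. A motif counted for a gene if any of its windows held it. The 14453 genes were not filtered for dim ones, whereas all members lay above that limit, so the sets were not matched for expression or windows per gene. These matches are descriptions of letters, and no binding was measured here.

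The bases just before the start site are given here for the genes that passed a test in at least 1 comparison and had a window, so that members that share a response can be compared. Matches of the ETS, YY1 and NRF1 cores are in capitals: both for Mrpl45 are NRF1 cores, and those for Mrpl52 and Mrps27 are ETS cores on the reverse strand. The printed bases are chr11:97315466-97315715 for Mrpl45, chr14:54426659-54426908 for Mrpl52, chr13:99344679-99344785 for Mrps27 and chr2:127587176-127587425 for Mrps5, all on the plus strand. For Mrps27 the run stops at 107 bases, where the gene Ptcd2 on the other strand begins. No entry was matched for Mrps28 and Mrps34.
Mrpl45: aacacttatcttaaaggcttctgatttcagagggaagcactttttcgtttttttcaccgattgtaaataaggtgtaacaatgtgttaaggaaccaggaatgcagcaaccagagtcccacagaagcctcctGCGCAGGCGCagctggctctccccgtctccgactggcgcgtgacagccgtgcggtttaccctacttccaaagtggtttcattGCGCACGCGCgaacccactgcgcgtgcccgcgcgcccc
Mrpl52: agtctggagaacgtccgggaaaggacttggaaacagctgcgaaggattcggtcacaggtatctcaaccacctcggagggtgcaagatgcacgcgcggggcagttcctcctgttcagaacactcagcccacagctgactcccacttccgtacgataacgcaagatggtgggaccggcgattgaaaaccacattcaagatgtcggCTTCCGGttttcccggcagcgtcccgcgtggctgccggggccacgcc
Mrps27: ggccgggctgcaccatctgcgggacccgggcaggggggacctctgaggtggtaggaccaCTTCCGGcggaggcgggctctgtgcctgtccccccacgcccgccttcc
Mrps5: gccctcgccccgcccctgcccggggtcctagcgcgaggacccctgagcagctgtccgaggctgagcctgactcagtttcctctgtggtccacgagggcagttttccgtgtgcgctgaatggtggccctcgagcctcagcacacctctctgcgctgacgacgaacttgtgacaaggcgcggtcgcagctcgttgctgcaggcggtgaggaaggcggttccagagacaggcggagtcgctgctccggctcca
The ETS matches of Mrpl52 and Mrps27 begin 47 and 48 bases before their start sites. The window of Mrps27 also holds the YY1 core 14 bases after the start. That of Mrpl52 holds a further ETS core 2 bases after the start, and that of Mrpl45 a further NRF1 core 15 bases after it. None of the 3 motifs was found in the window of Mrps5.

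The arrays were alike in scale but differed in other ways, some of them between single arrays and some between groups. Mean intensities lay between 306.9 and 309.8. All 10 listed hepatocyte markers lay above the dim limit on every array, with summed levels between 100600 and 114300. Ass1 was the dimmest of them, at 134 to 238. Their sum was 110000 to 114300 in LF+CR and 107200 to 108700 in LF, and 107500 to 110300 in HF+CR and 103700 to 107300 in HF. Clps, which encodes pancreatic colipase, read between 221 and 730 on LF 1, LF+CR 1, LF+Ex 3 and HF+Ex 1, and between 45.9 and 53.1 on the other arrays. The arrays HF 1, HF+Ex 3 and LF+CR 2 had the highest scores on the leading principal component of all genes (26.6% of the variance). The summed level of 3 erythroid markers was 647 to 730 in LF+CR and 1068 to 1242 in LF, and that of 6 adipocyte markers was 10430 to 12960 in HF and 7810 to 9601 in LF. That of 10 stellate cell markers was 7075 to 8044 in HF and 5805 to 6567 in LF. The part of these differences in the results below was not tested, apart from the fits without the arrays named here. In whole liver, fewer cells of a type and less RNA per cell cannot be told apart.

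The transcripts varied little over the 18 livers. The highest array was under 1.5 times the lowest for 71 of the 76 genes, or 93.4%, against 63.95% of all genes tested, and it was over 2 times the lowest for none of the 76, against 9.16% of all. The exceptions above 1.5 were Mrpl23, Mrpl49, Mrpl40, Mrps27 and Mrps22, which were singled out after their values were seen. Mrpl23 had the widest range, from 447 on LF 1 to 729.8 on LF+CR 1. The residual SD within groups had a median of 0.084 on the log2 scale over the members and 0.11 over all genes. It was lowest in Mrps5 (0.039) and highest in Mrpl40 (0.17). The mean intensities of the members ranged from 192.8 to 1635, and all genes tested include dimmer ones, so the 2 sets were not matched for brightness.

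The largest difference between any 2 group means had a median of 0.19 on the log2 scale over the members, against 0.23 over all genes. The first component of the within-group deviations held 28.3% of their variance in the members and 30.0% in all genes. Part of this shared variation belonged to single livers. When each gene was set against its own mean over 18 arrays, 64 of the 76 genes lay above it on HF+CR 3, 58 on LF 2 and 14 on LF+Ex 2. The median deviation of the 76 genes was 0.078 on HF+CR 3, 0.083 on LF 2 and -0.065 on LF+Ex 2. Over all genes tested it was 0.0071, 0.037 and -0.0036 on these arrays, so the shift on LF 2 was in part one of the whole array. The pooled within-group SD of the members' median was 0.038, which is the scale against which differences of a few hundredths between groups should be read.

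**Figure D1:**
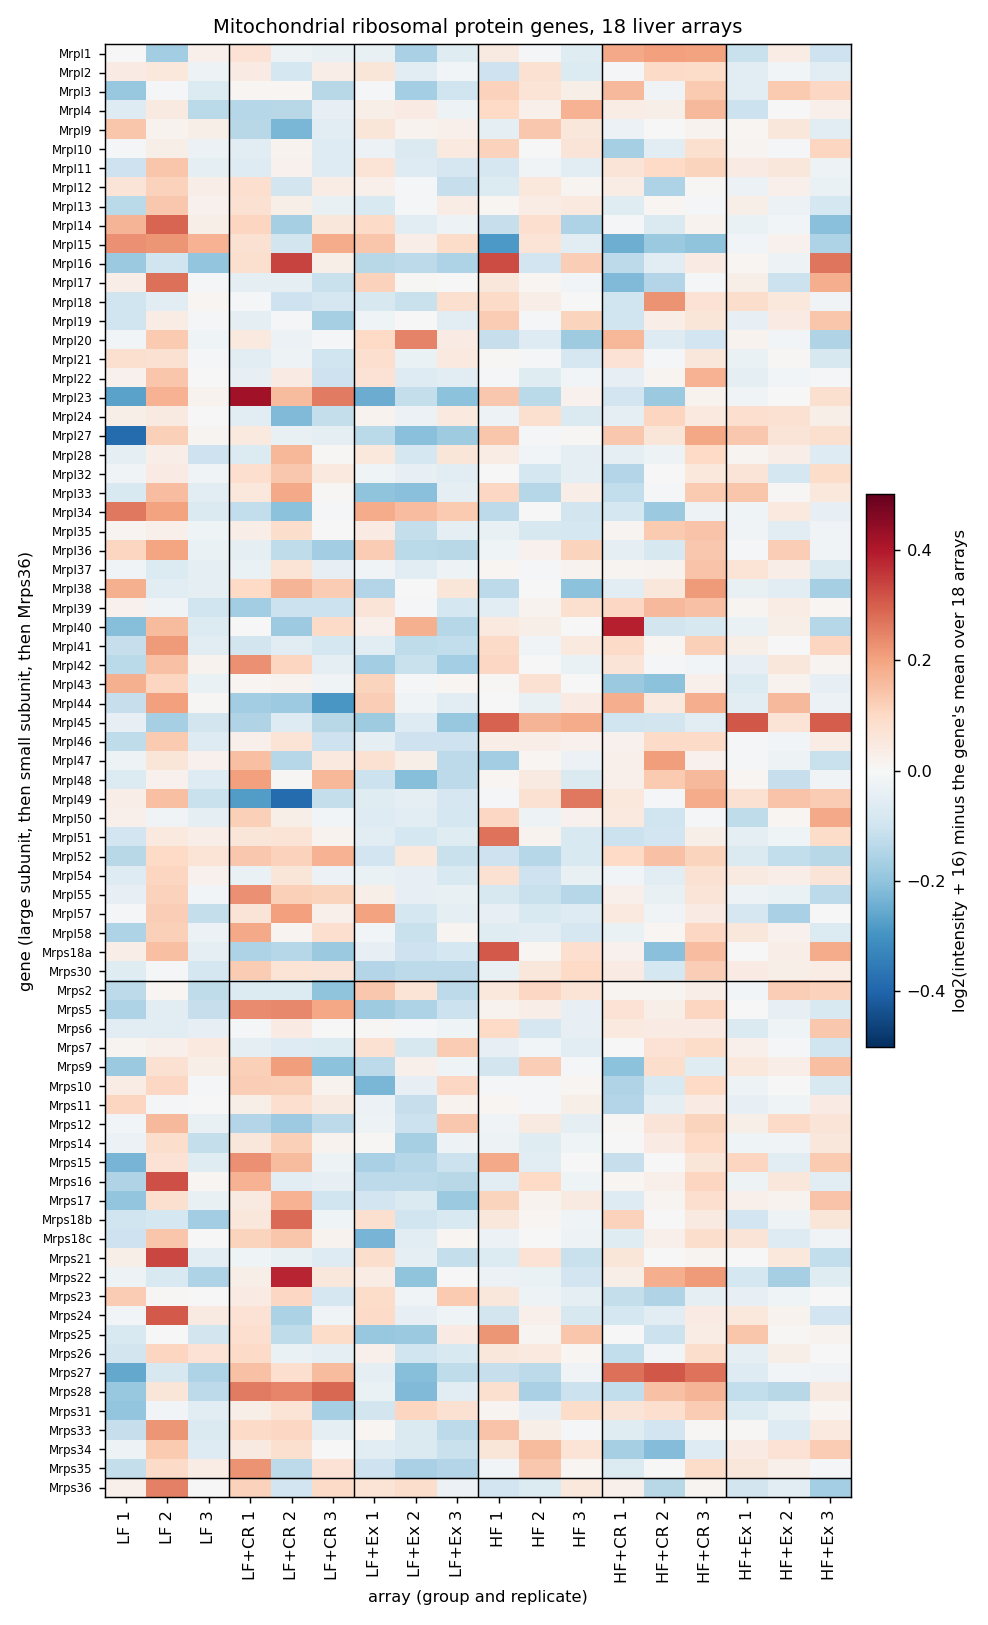
Each row is 1 of the 76 genes and each column 1 of the 18 arrays in 6 groups of 3; colour gives log2(intensity + 16) minus the gene's own mean over 18 arrays. Most cells are pale, LF 2 and HF+CR 3 are mostly red (58 and 64 of 76 genes above their means), and Mrps27 is red on all arrays of LF+CR and HF+CR.

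Of the 76 genes, 1 passed the test between the HF and LF diets (limma, Benjamini-Hochberg adjusted p under 0.05), against 0.902% of all genes tested. The median log2 fold change was 0.018 over the members, or -0.0098 after quantile normalization, and -0.025 over all genes. Above 0 lay 40 members, or 35 after quantile normalization. The gene that passed was Mrpl45 (probe set 1423492_at), whose protein lies near the exit of the large subunit and helps to hold the ribosome at the inner membrane. It read 367, 335 and 339 on the HF arrays, and 287, 262 and 277 on the LF arrays. The groups did not overlap, and the HF mean was higher by 24.5% (log2 fold change 0.32 ± 0.07 (SE), limma adjusted p = 0.0385). HF+Ex read 371, 311 and 369, above all LF, LF+CR, LF+Ex and HF+CR arrays. The Mrpl45 difference lost its call in 14 of 31 alternative settings, with log2 fold changes of 0.28 to 0.35 and adjusted p values of 0.0106 to 0.216. The settings that ended it included leaving out LF 1, LF 2, LF 3, HF 1 or HF 3, and, through the shared error estimate, LF+CR 1, LF+Ex 1, HF+CR 2 or HF+CR 3. After median centring of the arrays the adjusted p was 0.0509, and with the replicate number as a block it was 0.0698.

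The next smallest p values in that comparison belonged to Mrpl15 and Mrpl16, both parts of the large subunit with bacterial relatives. Mrpl15 read 1034 ± 129 (SD, n = 3, as for all group means) in HF and 1269 ± 26.1 in LF, a log2 difference of -0.30 ± 0.08 (SE, limma adjusted p = 0.0971). It has 8 probe sets, and all 8 differences were below 0, from -0.41 to -0.016. Mrpl16 read 993 ± 147 in HF and 810.3 ± 30.1 in LF, a log2 difference of 0.28 ± 0.10 (limma adjusted p = 0.208). Neither passed. By subunit, 24 of 49 large-subunit genes and 16 of 26 small-subunit genes lay above 0 (21 and 14 after quantile normalization).

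Calorie restriction on the LF diet was the comparison with most movement at an unadjusted p under 0.05, which 19 of the 76 genes had (25%, against 18.6% of all genes). After adjustment 3 genes rose and 0 fell in limma (11 and 8 at an unadjusted p under 0.05), against 5.57% of all genes tested in either direction. The member median was 0.017, or -0.042 without the 4 arrays high in Clps, and that of all genes -0.0084. All 3 were small-subunit genes. In that subunit 18 of 26 genes lay above 0, with a median of 0.055, and in the large subunit 23 of 49 did, with a median of -0.017. These counts were 18 and 24 after quantile normalization and after centring, and 15 and 18 without the 4 arrays high in Clps, where 1 of the 3 calls was left.

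Mrps5 encodes a protein of the small subunit with bacterial relatives, and the gene has been studied in relation to lifespan in mice. On probe set 1448488_at it read 391, 392 and 379 in LF+CR and 294, 316 and 303 in LF. All LF+CR arrays lay above every array of the other 5 groups, the highest of which was 356 on HF+CR 3. Mrps5 rose by 25.8% (log2 fold change 0.33 ± 0.05, limma adjusted p = 0.00071). The 4 other probe sets of the gene did not follow: the differences were 0.051 on 1453954_a_at, 0.11 on 1459439_at, -0.13 on 1435563_at and 0.091 on 1447628_x_at. With the mean of all 5 probe sets the log2 fold change was 0.14 (adjusted p = 0.101), and with only the compared groups in the fit the adjusted p was 0.0609. The other 29 alternatives kept the call.

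Mrps27, a pentatricopeptide repeat protein of the small subunit that occurs only in mitochondria, has a single probe set (1433646_at). It read 240.4, 229.6 and 243 in LF+CR and 178, 203 and 192 in LF. These groups did not overlap, and Mrps27 rose by 22.5% (log2 fold change 0.29 ± 0.06, limma adjusted p = 0.00674). The call held in 29 of 31 alternatives. It was lost in a fit of the compared groups alone (adjusted p = 0.121) and without the 4 arrays high in Clps, where the log2 fold change was 0.24 (adjusted p = 0.147).

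Mrps28, a further small-subunit protein, also has 1 probe set (1452585_at). It read 693, 685 and 706 in LF+CR, above the 504, 601 and 525 of LF and above every array of the other groups. Mrps28 rose by 27.4% (log2 fold change 0.35 ± 0.09, limma adjusted p = 0.0358). The call was lost in 10 of 31 alternatives, with adjusted p values up to 0.276. These included leaving out LF 1, LF 3 or any array of LF+CR, and the fit without the 4 arrays high in Clps. The log2 fold change ranged from 0.30 to 0.42 over the alternatives.

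Restriction on the HF diet changed 4 of the 76 genes, 2 up and 2 down, against 6.09% of all genes tested. Quantile normalization gave 4 up and 1 down, and median centring of the arrays 1 up and 2 down. The member median was 0.022 as deposited but -0.046 after centring, and that of all genes was 0.044 and -0.020. At an unadjusted p under 0.05 there were 12 members, or 15.8%, against 25.5% of all genes. By subunit, 29 of 49 large and 14 of 26 small lay above 0, but 17 and 7 after centring.

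Markers of other cells also differed between HF+CR and HF, and their part in the results for these groups was not tested. The summed level of 10 pancreatic acinar markers was 2073 to 2638 in HF+CR and 1162 to 1235 in HF. Cela1, an elastase gene, read 1233 to 1827 and 412 to 452 in these groups, while Clps, Cpb1, Cela2a, Cela3b, Prss2 and Pnliprp1 lay below the dim limit on all arrays of both. The 3 erythroid markers summed to 1410 to 1548 in HF+CR and 1011 to 1106 in HF, and the 12 Kupffer cell markers to 7299 to 8535 and 8984 to 13690. None of these 3 sums overlapped between the groups. Of the single Kupffer cell markers, Clec4f, Marco, Timd4, Csf1r and Fcna did overlap, and the others were lower in HF+CR without overlap.

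Mrps27 again rose. It read 265, 271 and 264 in HF+CR and 198, 196 and 213 in HF, so that the groups did not overlap and every HF+CR array lay above every other array. The rise was 29.6% (log2 fold change 0.37 ± 0.06, limma adjusted p = 0.00205), and it passed in all 31 alternatives, with values of 0.31 to 0.41. The 31 include fits that left out only arrays of other groups, which could not change the fold change. HF+CR and HF share no array with LF+CR and LF, so the 2 rises of Mrps27 rest on separate mice.

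Mrpl45 fell under restriction on the HF diet. It read 275, 277 and 284 in HF+CR against 367, 335 and 339 in HF, by 18.7% (log2 fold change -0.30 ± 0.07, limma adjusted p = 0.0185). The HF+CR values lay within the range of the LF arrays. The comparison shares the HF arrays with that of HF and LF, so the 2 results for Mrpl45 are not independent. The call was lost without HF 1, without HF+CR 1, without HF+CR 2 and without the 3 arrays with the highest scores on the leading component, with adjusted p values up to 0.0988.

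Mrps34, a small-subunit protein found in mitochondria only, read 924, 893 and 994 in HF+CR and 1085, 1163 and 1091 in HF. The groups did not overlap, and Mrps34 fell by 15.6% (log2 fold change -0.25 ± 0.06, limma adjusted p = 0.0261). The LF+Ex arrays, at 998, 988 and 961, overlapped HF+CR. The call was lost in 9 of 31 alternatives, among them quantile normalization (-0.20, adjusted p = 0.0702) and leaving out HF+CR 1, HF+CR 2 or any HF array. A further probe set with the symbol Mrps34 also carries Nme3 and was not used.

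Mrpl52, a large-subunit protein found in mitochondria only, read 1034, 1069 and 1042 in HF+CR and 896, 872 and 914 in HF on probe set 1460701_a_at. The groups did not overlap, and Mrpl52 rose by 17.0% (log2 fold change 0.23 ± 0.06, limma adjusted p = 0.0457). This call was lost in 19 of 31 alternatives. The other 2 bright probe sets of Mrpl52, 1415762_x_at and 1415761_at, had differences of -0.042 and -0.020, and the mean of its 4 probe sets gave 0.060 (adjusted p = 0.531). Leaving out any array of HF or HF+CR ended the call, as did leaving out LF 3, LF+CR 1, LF+CR 3, LF+Ex 1, HF+Ex 1 or HF+Ex 2, which entered through the shared error estimate.

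**Figure D2:**
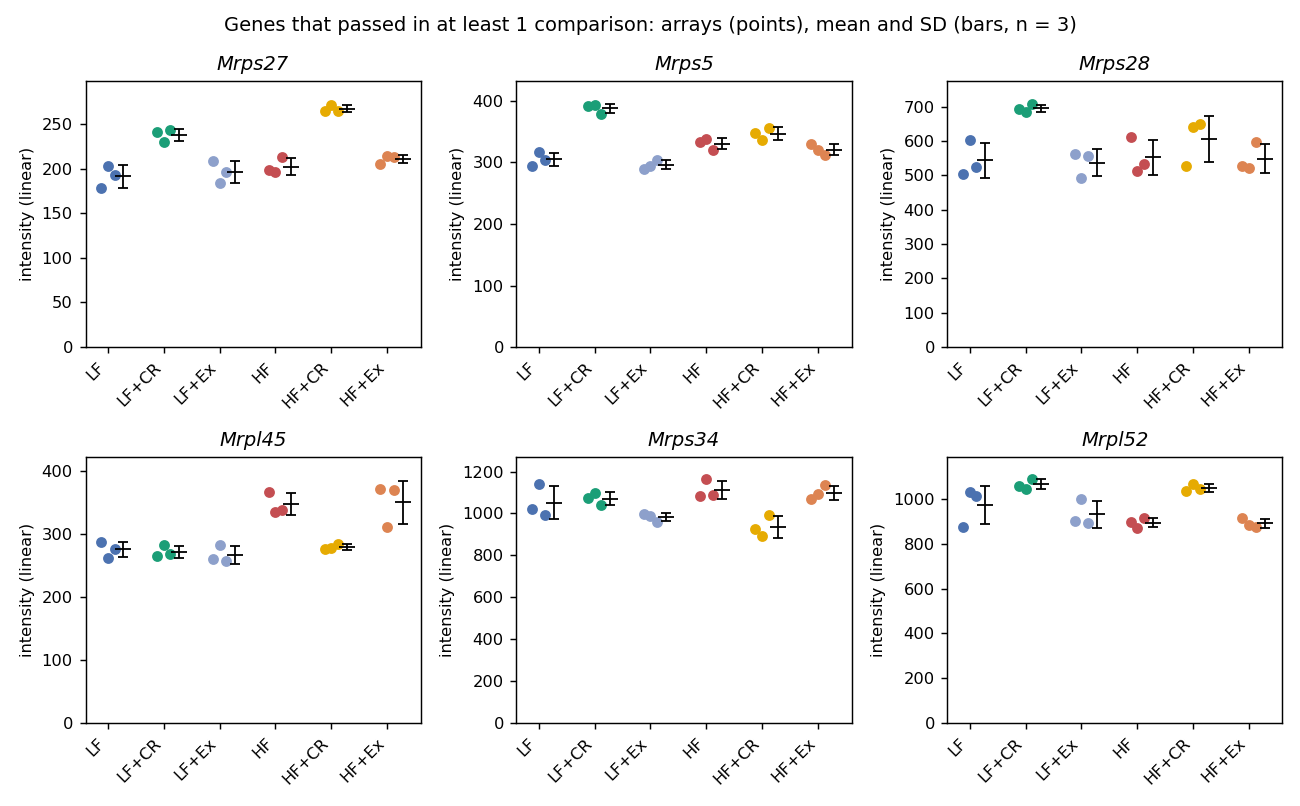
Intensity on a linear axis from 0, by group, for the 6 genes that passed in at least 1 comparison; points are arrays and bars the mean and SD of 3. Mrps27 reads 230 to 271 in the restricted groups and 178 to 214 elsewhere, and Mrpl45 reads 311 to 371 in HF and HF+Ex and 258 to 287 elsewhere.

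Set side by side, restriction moved 25 of the 76 genes up on both diets and 16 down on both, counting the sign of the estimate alone, and 35 had opposite signs. After centring these counts were 16, 26 and 34. In the values as deposited, the same sign was shared by 54.0% of the members and 45.1% of all genes tested. Across the 76 genes the Pearson correlation of the 2 log2 fold changes was 0.21, and across all genes it was -0.18. Genes are not independent replicates, and these values describe the 12 arrays involved.

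The interaction test, restriction on HF minus restriction on LF, was passed by 1 member, against 5.74% of all genes tested. Mrps5 rose by 0.33 on the LF diet and differed by 0.066 ± 0.05 on the HF diet, where it read 347 ± 9.90 in HF+CR and 330.3 ± 9.57 in HF. The difference of the 2 responses was -0.27 ± 0.07 (limma adjusted p = 0.0323). It passed in 18 of 31 alternatives and was -0.065 (adjusted p = 0.555) with the mean of the probe sets. The other probe sets gave both signs: 0.095 on 1453954_a_at, -0.24 on 1459439_at, 0.29 on 1435563_at and -0.029 on 1447628_x_at. Leaving out LF 1, LF 3, LF+CR 1, LF+CR 2, HF 1, HF 2, HF+CR 1 or HF+CR 2 also ended the call, with adjusted p values of up to 0.0790. With the replicate block the adjusted p was 0.0579.

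Mrpl44, a large-subunit protein with a fold like that of ribonuclease III, and Mrpl16 came next in the interaction without passing. Mrpl44 differed by -0.25 ± 0.08 on the LF diet and by 0.14 ± 0.08 on the HF diet, an interaction of 0.38 ± 0.12 (limma adjusted p = 0.064). Its 4 probe sets all gave interactions above 0, from 0.097 to 0.38. Mrpl16 differed by 0.31 ± 0.10 and -0.17 ± 0.10, an interaction of -0.48 ± 0.15 (limma adjusted p = 0.0684). For Mrps27 the interaction was 0.081, with a 95% confidence interval of -0.092 to 0.25 (limma adjusted p = 0.559). That interval holds no difference between the diets as well as a response larger by 0.25 on the HF diet. Above 0 in the interaction lay 7 of 26 small-subunit genes (5 after centring) and 30 of 49 large-subunit genes (18 after centring). The member median was 0.00099 as deposited but -0.075 after centring, against 0.054 and -0.018 for all genes.

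**Figure D3:**
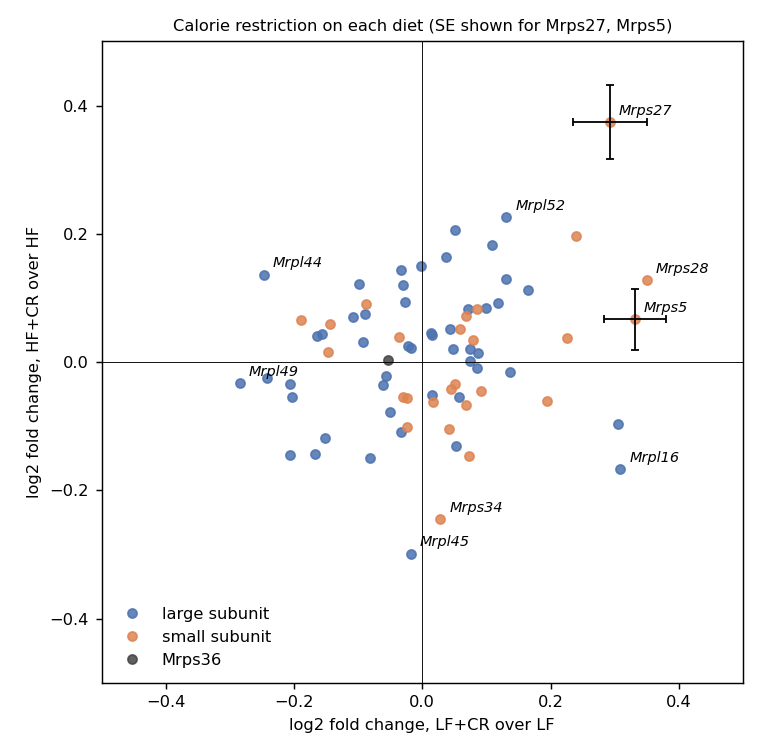
Log2 fold change under restriction on the LF diet (horizontal) and on the HF diet (vertical) for the 76 genes, coloured by subunit; bars on Mrps27 and Mrps5 are SE. Mrps27 lies at 0.29 and 0.37, Mrps5 at 0.33 and 0.066, and 35 of the 76 genes lie in the quadrants of opposite sign.

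Voluntary running gave no call among the members on either diet. On the LF diet 0 of 76 passed in limma, 0 had an unadjusted p under 0.05, and 0.00704% of all genes passed. The estimates were small but lay mostly on 1 side: 58 of the 76 were below 0, with a median of -0.043 against -0.017 for all genes. The count differed with the arrays and scaling used. Without LF 2, 40 of the 76 were below 0 and the median was -0.0031, the highest of the fits that left out 1 array. After centring 46 were below 0, and after quantile normalization 59. Without the 4 arrays high in Clps 57 were below 0, with a median of -0.066. The share of all genes below 0 is not given here, and the cause of the lean was not tested. The smallest p values belonged to Mrpl42, Mrps16 and Mrpl33. Mrpl42 read 1264 ± 31.2 in LF+Ex and 1420 ± 139 in LF (log2 difference -0.16 ± 0.08). Mrps16, a small-subunit protein with bacterial relatives, read 662 ± 1.36 and 767 ± 133 (-0.19 ± 0.09). Mrpl33, a small protein of the large subunit, read 521 ± 34.9 and 585 ± 54.1 (-0.16 ± 0.09). The limma adjusted p was 0.9997 for each of these.

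On the HF diet 0 of 76 passed in limma after running, again with 0 at an unadjusted p under 0.05, and 0% of all genes passed. The member median was -0.0050 and that of all genes -0.0087, and the estimates ran from -0.13 (Mrpl4) to 0.074 (Mrpl11). Mrpl4, of the large subunit, read 589 ± 29.2 in HF+Ex and 645 ± 34.0 in HF (log2 difference -0.13 ± 0.06). Mrpl24 read 1249 ± 25.6 and 1190.0 ± 65.3 (0.069 ± 0.06). Mrpl11, which sits at the base of the stalk where translation factors bind, read 699.8 ± 21.6 and 664 ± 15.8 (0.074 ± 0.06). The interaction of running with diet was passed by 0 of 76 in limma, with 1 at an unadjusted p under 0.05, against 0.00704% of all genes. The smallest p values were those of Mrpl4 (-0.19 ± 0.09), Mrpl33 (0.23 ± 0.12) and Mrpl54 (0.14 ± 0.08), all with a limma adjusted p of 0.9996. The member median of this interaction was 0.051, against 0.0073 for all genes, and without LF 2 it was 0.0097.

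The precision of 3 mice a group set bounds on larger changes. In each of the 5 comparisons of a pair of groups, the 95% confidence interval of all 76 genes lay within a 1.5-fold change in either direction. The same held for 89.1% to 95.5% of all genes, by comparison. In the interaction of restriction with diet it held for 73 of the 76 genes. The median SE over the members was 0.072 for a pair of groups.

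**Figure D4:**
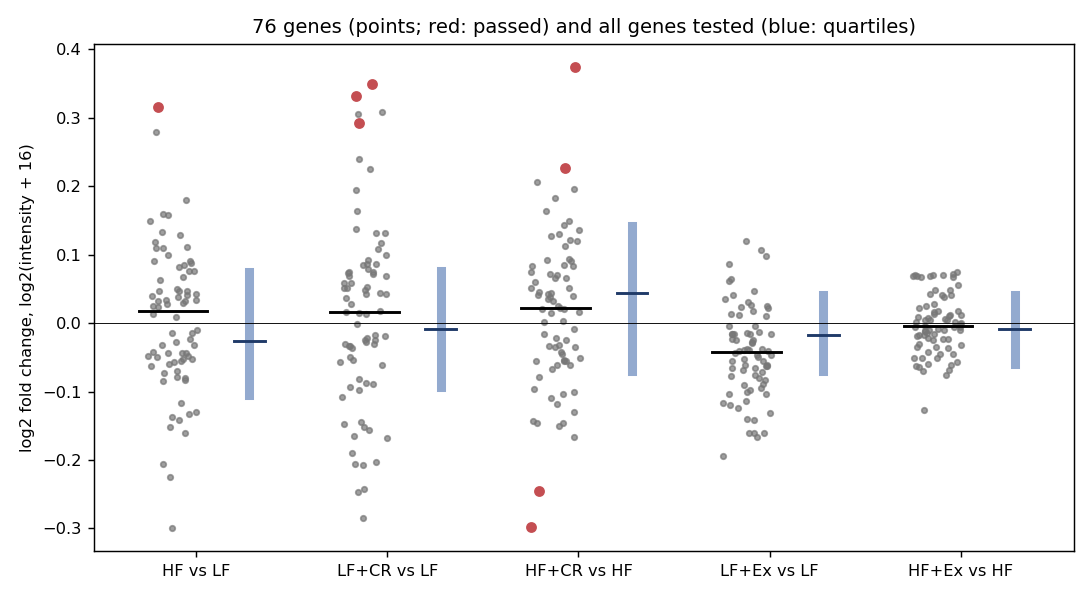
Log2 fold changes of the 76 genes in the 5 comparisons (grey points; red points passed; black line the median), beside the quartiles and median of all genes tested (blue). The red points number 1, 3, 4, 0 and 0, and the member medians lie between -0.043 and 0.022 in the values as deposited (0.018 between HF and LF turns to -0.0098 after quantile normalization, and 0.022 for HF+CR against HF to -0.046 after centring).

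Some members were described for their roles, whatever their p. Mrpl12, which also binds the mitochondrial RNA polymerase, had group means from 1532 ± 108 in HF+CR to 1647 ± 48.9 in LF, and its largest difference was -0.10 ± 0.07 (LF+Ex against LF). Mrpl3, near the peptidyl transferase centre, read 813 ± 51.6 in LF and 909 ± 28.2 in HF (log2 difference 0.16 ± 0.07, limma adjusted p = 0.290). Its 3 dimmer probe sets had differences of the other sign, from -0.13 to -0.027. Mrpl11 differed by 0.14 ± 0.06 under restriction on the HF diet (limma adjusted p = 0.172). Mrpl41 lay between 573 ± 17.4 in LF+Ex and 649 ± 27.0 in HF+CR. None of these 4 large-subunit genes passed in any comparison.

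Of the small-subunit genes described for their roles, Mrps12, a protein of the decoding centre, read 642 ± 11.9 in LF+CR and 736 ± 58.4 in LF (log2 difference -0.19 ± 0.07, limma adjusted p = 0.123). This estimate is opposite in sign to those of Mrps5, Mrps27 and Mrps28. Mrps22 read 635, 814 and 648 in LF+CR and 610.4, 589 and 558 in LF, with LF+CR 2 far above the rest (log2 difference 0.24 ± 0.09, limma adjusted p = 0.137). On the HF diet it read 636, 709 and 725 under restriction and 609.7, 607 and 581 without it (0.20 ± 0.09, limma adjusted p = 0.179). The Mrps22 groups did not overlap on either diet, and neither difference passed.

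Mrps30 is named for the small subunit, but its protein lies in the large one. It read 513, 492 and 491 in LF+CR and 449, 467 and 440.2 in LF, groups that did not overlap (log2 difference 0.14 ± 0.06, limma adjusted p = 0.196). Mrps36 lay between 396 ± 16.8 in HF+Ex and 458 ± 46.5 in LF. The 3 paralogs of the bacterial S18 protein sit at different places in the ribosome and had estimates of both signs under restriction on the LF diet. Mrps18a, in the large subunit, differed by -0.21 ± 0.09. Mrps18b, in the small subunit, differed by 0.23 ± 0.08 and Mrps18c, also in the small subunit, by 0.079 ± 0.07. The limma adjusted p values were 0.233, 0.0988 and 0.660 in that order, so no paralog passed.

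Genes that serve the same ribosome were taken from lists, of which the lists of translation factors, aminoacyl-tRNA synthetases and assembly factors are closest. Ribosomal proteins with other symbols, Dap3, Ptcd3, Chchd1 and Gadd45gip1, gave 0 calls of 4 in limma in every comparison. An unadjusted p under 0.05 was reached by 2 of 4 between HF and LF, and by 2 of 4 under restriction on each diet. The shares of all genes at that limit were 16.3% between HF and LF, 18.6% under restriction on LF and 25.5% on HF. Counts in these lists stand against 5.57% of all genes called under restriction on LF, 6.09% on HF and 0.902% between the diets, and 1 gene in a list of about 20 is near the first and second of these shares. Under restriction on the LF diet 1 of 17 translation factors rose, Gfm1, which encodes the elongation factor that moves the ribosome along. Gfm1 read 1149 ± 158 in LF+CR and 877 ± 48.9 in LF (log2 fold change 0.38 ± 0.09, limma adjusted p = 0.0259). Of 20 synthetases 1 rose, Gars, whose gene encodes both the cytosolic and the mitochondrial glycyl-tRNA synthetase (0.42 ± 0.11, limma adjusted p = 0.0397). Of 25 assembly factors 3 fell: the helicases Ddx28 (-0.31 ± 0.09, limma adjusted p = 0.0465) and Dhx30 (-0.21 ± 0.06, 0.0437) and the rRNA methyltransferase Mrm2 (-0.26 ± 0.06, 0.0206). An unadjusted p under 0.05 was reached by 10 of 17 translation factors, 3 of 20 synthetases and 10 of 25 assembly factors. The share of all genes at that limit was 18.6%.

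Restriction on the HF diet moved other genes of these lists. Mettl17, an assembly factor of the small subunit, rose, with 402 ± 37.4 in HF+CR and 321 ± 3.79 in HF (log2 fold change 0.31 ± 0.08, limma adjusted p = 0.0275), and no other of the 25 passed. Of the 17 translation factors and 20 synthetases 0 passed in limma, with 1 and 5 at an unadjusted p under 0.05. Of the 25 assembly factors 3 were under that limit, and the share of all genes was 25.5%. In mitochondrial transcription and DNA maintenance, Polg, the mitochondrial DNA polymerase, fell on the LF diet (-0.30 ± 0.08, limma adjusted p = 0.0422), and Tfb2m, which helps to start mitochondrial transcription, fell on the HF diet (-0.34 ± 0.09, limma adjusted p = 0.0374). Each was 1 of 13. Tomm20, an import receptor of the outer membrane, rose on the LF diet (0.25 ± 0.06, limma adjusted p = 0.0312) and fell on the HF diet (-0.33 ± 0.06, limma adjusted p = 0.00782). Hspa9, the chaperone of the matrix that pulls proteins in, rose on the LF diet (0.41 ± 0.07, limma adjusted p = 0.00328). These were 2 of 24 import and protease genes higher on LF and 1 of 24 lower on HF. The fall of Tomm20 passed in all 31 alternatives and the rise of Hspa9 in 30. Fewer were passed by Mrm2 (26), Gfm1 and Mettl17 (23 each), Tfb2m (22), Tomm20 on LF (21), Gars (18), Ddx28 and Polg (11 each) and Dhx30 (8).

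The regulators tied to mitochondrial biogenesis, 14 genes, had 0 calls in limma in any of the 7 comparisons, with 0 to 4 genes at an unadjusted p under 0.05. Ppargc1a read 192 ± 50.5 in LF+CR and 142 ± 34.8 in LF (log2 difference 0.39 ± 0.16, limma adjusted p = 0.191), and 115 ± 6.78 in HF+CR and 148 ± 12.8 in HF (-0.32 ± 0.16, limma adjusted p = 0.224). Nrf1 read 143 ± 6.51 and 151 ± 3.19 on LF and 151.3 ± 0.695 and 134 ± 11.5 on HF.

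The products of mitochondrial translation join nuclear-encoded subunits of oxidative phosphorylation. Of 69 such genes, 8 rose under restriction on the LF diet and 0 fell in limma (22 at an unadjusted p under 0.05), against 5.57% of all genes called and 18.6% at an unadjusted p under 0.05, with a list median of 0.060 against 0.017 for the ribosomal proteins and -0.0084 for all genes. The largest were Cycs (0.35 ± 0.08, limma adjusted p = 0.0189), Ndufs1 (0.30 ± 0.08, limma adjusted p = 0.0272) and Ndufa8 (0.24 ± 0.07, limma adjusted p = 0.0481). These 3 calls held in 24, 23 and 9 of 31 alternatives in that order, and Ndufa8 went down to 0.14. After centring 2 of the 69 rose. On the HF diet 0 of 69 passed in limma under restriction, with 2 at an unadjusted p under 0.05, against 25.5% of all genes. Of 37 cytosolic ribosomal protein genes, 2 were lower in HF than in LF (3 after quantile normalization, 0 after centring), against 0.902% of all genes. The list median was -0.15 against 0.018 for the mitochondrial ones. Under restriction on the HF diet 1 of the 37 rose (0 after quantile normalization, 0 after centring), against 6.09% of all genes. No test of the difference between lists was made.

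**Figure D5:**
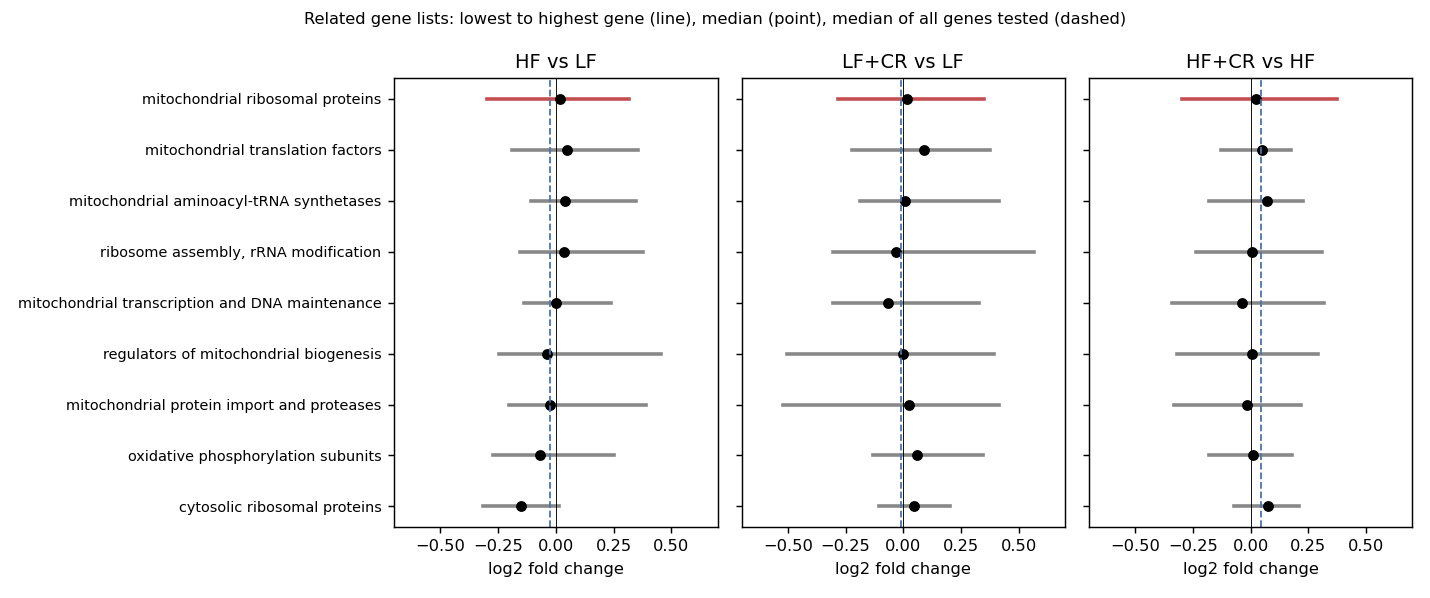
Lowest to highest log2 fold change (line) and median (point) of each gene list in 3 comparisons; the dashed line is the median of all genes tested. The medians of the mitochondrial ribosomal proteins (red line) are 0.018 (-0.0098 after quantile normalization), 0.017 and 0.022 (-0.046 after centring), and the cytosolic ribosomal proteins lie at -0.15 between HF and LF.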

How the data were processed

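The authors deposited a linear intensity for each probe set. Per the labels, Trizol-extracted RNA was labelled as biotinylated cRNA. How they were summarised and scaled is not given in the sources used here. Controls were left out, and probe sets were named from the platform annotation (34945 with 1 symbol, 932 with several, 9160 with none). Tested genes were those whose probe set exceeded the 40th percentile of an array (88.2 to 97.6) on at least 3 arrays. limma 3.58.1 in R 4.3.3 was fitted to log2(intensity + 16) with 1 mean per group over all 18 arrays, and p values were adjusted over all genes tested by Benjamini-Hochberg at 0.05. The pipeline was tested on simulated data. Fold changes are on the log2(intensity + 16) scale. The number of arrays limits the precision.

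Members, gene lists and tests were chosen with earlier results of these data known. Named members are those that passed, up to 8 per direction, or the 3 with the smallest p where fewer than 3 passed, and 13 members fixed for their roles. In related lists up to 3 that passed per direction were named. Ppargc1a, Nrf1 and members singled out for their range or promoter were chosen after their values were seen. Alternatives were quantile normalization, median centring, offsets of 1 and 64, no dim filter or the 60th percentile, the mean of probe sets, a trended robust variance, array weights, only the compared groups, the replicate number as a block, each array left out, and 2 fits without 3 or 4 arrays.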

Additional observations from a re-analysis of the deposited data

Results flagged for a closer look

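On the probe set used for each gene, 11 genes, Mrps5 and 10 of the related lists, passed the interaction test itself (limma adjusted p under 0.05). The interaction is restriction on HF minus restriction on LF. These genes were 1 of 76 members, 1 of 17 translation factors, and 1 up and 1 down of 25 assembly factors. They were also 3 of 24 import and protease genes and 4 of 69 oxidative phosphorylation genes. The other lists had 0, and 5.74% of all genes tested passed. Among the ribosomal proteins, the interaction was -0.265 on the log2 scale for Mrps5. Its other probe sets gave values of both signs, from -0.24 to 0.29, and their mean with the one used gave -0.065 (limma adjusted p = 0.555). Among the genes that serve the ribosome, it was -0.505 for the elongation factor Gfm1, 0.436 for the assembly factor Mettl17 and -0.461 for C1qbp, a matrix protein that binds RNA. Among import genes, it was -0.58 for Tomm20, -0.459 for Hspa9 and -0.297 for Grpel1, which works with Hspa9. Among subunits of complex I, it was -0.404 for Ndufa10, -0.349 for Ndufa8 and -0.269 for Ndufv1. For Uqcrfs1, the iron-sulfur subunit of complex III, it was -0.256. This gene was named after its value was seen. Of these 11, Tomm20 passed in all 31 alternatives, and the others in 12 to 27 of them.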

How the results depend on the processing

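No called member changed sign in any of 31 alternatives, but most calls were near the threshold. Alternatives that left out only arrays outside a comparison could change its p values but not its fold changes, and they count among the 31. The cause of each shift below was not tested. The share of all genes called in each alternative is not given here. Member counts from an alternative, here or above, therefore cannot be set against the shares of the main fit. With arrays centred on their median, members called were 0 (HF against LF) and 2 (interaction with restriction), and medians were 0.057 (HF against LF), -0.046 (HF+CR against HF) and -0.075 (interaction). Quantile normalization gave 2 in the interaction, and the mean of probe sets 0. Array weights gave 4, 9, 7 and 6 members called for HF against LF, LF+CR against LF, HF+CR against HF and the interaction. Fits of only the compared groups, with fewer arrays, gave 0, 0, 2 and 0. Chosen after the data were seen, the fit that left out the 3 arrays with the highest scores on the leading component gave 0 (HF against LF, median -0.020), 1 (HF+CR against HF) and 0 (interaction). Without the 4 arrays high in Clps it was 0 (HF against LF, median -0.025), 1 (LF+CR against LF, median -0.042) and 0 (interaction, median 0.053).

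The replicate number as a block gave 0 members called for HF against LF and 0 in the interaction, and 2 and 3 for restriction on LF and HF. Of 45 pairs of arrays with the same number, 10 had deviations correlated above 0.1 (r from -0.41 to 0.34). Of 18 arrays, 2 correlated best with an array of their own number. No values for pairs of different number are given beside these. They therefore cannot tell whether the numbers mark a shared batch or litter.

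Leaving out each array gave 0 to 2 members called for HF against LF (median -0.025 to 0.046), 2 to 5 for LF+CR against LF (-0.015 to 0.052), 1 to 5 for HF+CR against HF (-0.00016 to 0.035) and 0 to 2 in the interaction with restriction (-0.055 to 0.026). It gave 0 to 0 for running, with medians of -0.065 to -0.0031 on LF, -0.012 to 0.0062 on HF and 0.0097 to 0.069 in the interaction.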
